A study of Mus musculus with 9 samples.

Results

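The comparison described here set B16F10 cells carrying the second of a pair of guides against Tada2b (guide 2) against B16F10 cells carrying a guide named for GFP. Its members were the 6 libraries of those groups, 3 a group, out of 9 in the series, with every gene in the count table. B16F10 is a mouse melanoma line of the C57BL/6 background that makes melanin and spreads to the lung. The GFP guide cells were given as WT and the guide 2 cells as Tada2b knockout, and both were grown in DMEM with 10% FBS, with no other treatment named. Poly(A) RNA libraries were made with a stranded kit. The labels did not say whether a group was a pool of edited cells or 1 clone, whether the replicates were separate cultures, or how the guides were delivered. Every p-value therefore measures the spread between these libraries, which may be technical.

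SAGA is a coactivator complex with several modules: one acetylates histone H3 at promoters through Kat2a or Kat2b, and another removes ubiquitin from histone H2B. The Tada2b protein links the acetylating enzyme to its partners. With it in the module sit Tada3 and Sgf29, and the related ATAC complex holds Tada2a in the place of Tada2b. In pigment cells, Mitf drives the melanin enzymes and Sox10 drives Mitf, whereas dedifferentiated melanoma cells lose both and gain Axl, contractile genes and matrix genes. Interferon-induced genes are switched on through a shared promoter element that a complex holding Irf9 binds.

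Levels are given as CPM, the count scaled to library size after TMM adjustment, and changes as the log2 ratio of guide 2 to the GFP guide with its SE. A gene was called when its edgeR adjusted p was under 0.05. The libraries held 70.6 to 76.2 M counts. Principal component 1 (73.7% of variance) placed guide 2 libraries at 45.6 to 47.8 and controls at −46.8 to −45.7. The 50 most counted genes took 16.7 ± 0.51% of counts in the GFP guide libraries and 14.8 ± 0.36% with guide 2 (mean ± SD, n = 3; two-sided exact permutation p = 0.1, the smallest that 3 against 3 can give). Of the calls, 4798 were of changes under 1.5-fold, where the choice of scaling moves the value most in proportion.

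Of 17322 genes tested, edgeR called 3866 higher (22.3%) and 3656 lower (21.1%) with guide 2. Among protein-coding genes the shares were 27.7% and 24.4%. Counts of list members given below are to be read beside these shares, and a count near them says little about its list. Changes of at least 2-fold were called in 1063 genes that were higher (6.14%) and 578 that were lower (3.34%). At 4-fold or more there were 458 higher and 96 lower, and at 16-fold or more 90 higher and 0 lower. The calls were 51.4% higher with TMM and 64.6% higher with library size alone, and the median log2 change of all genes tested moved from −0.01 to 0.06. Groups did not overlap in 8989 genes (51.9%).

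**Figure D1:**
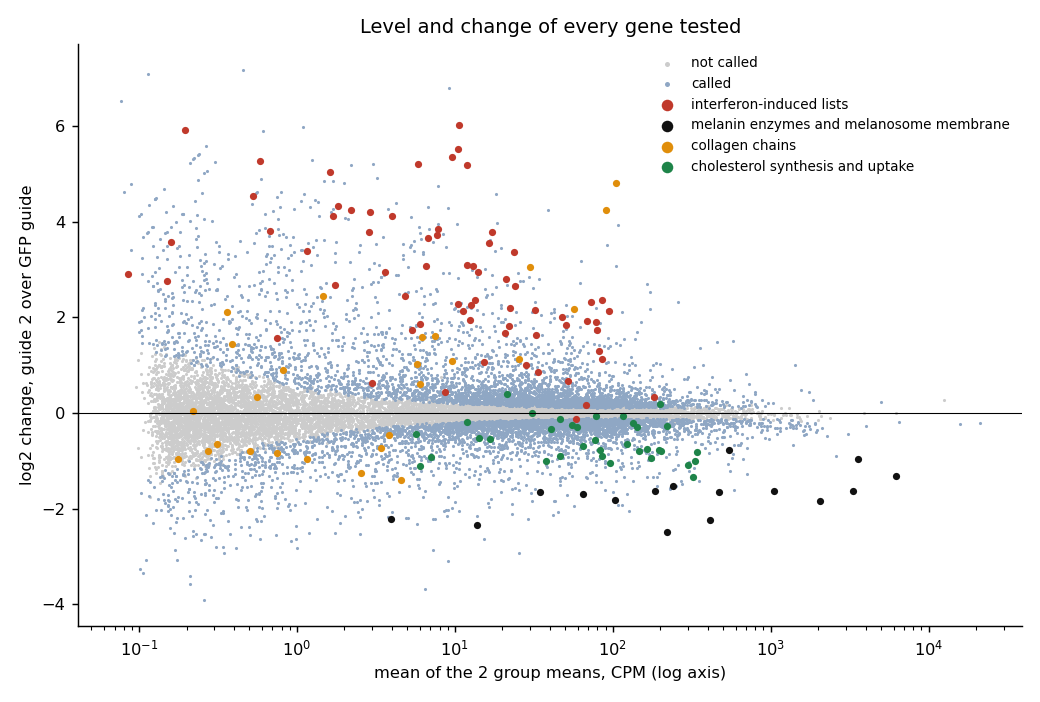
Log2 change of guide 2 over the GFP guide (y axis) against the mean of the group means in CPM (x axis, log scale), with 1 point for each of the 17322 genes tested; called genes are blue, and tested members of named lists are coloured. The coloured interferon-induced genes lie almost entirely above 0, the melanin genes all lie below 0, and nearly all cholesterol genes lie below 0.

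The level of the targeted gene was not called different. Tada2b (ENSMUSG00000029196, chromosome 5, 36473670 to 36484285 on the minus strand of mm10) was counted at 27.6, 24.7 and 26.3 CPM in the GFP guide libraries and 28.9, 25.95 and 25.7 CPM with guide 2. The groups overlapped, and the log2 change was 0.04 ± 0.06 (edgeR adjusted p = 0.684). Edited mRNA can persist, so the level neither supports nor contradicts the knockout label.

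Its partners in SAGA were measured next, because they share the complex. In the acetyltransferase module, 3 of 5 tested genes rose and 0 fell. Tada3, the adaptor that contacts Tada2b, was counted at 21.9, 22.1 and 21.002 CPM in the GFP guide libraries and 29.8, 29.8 and 31.9 CPM with guide 2. Every guide 2 library lay above every control, by 0.49 ± 0.05 on the log2 scale (adjusted p = 4.33e-06). The catalytic subunit genes Kat2b (0.24 ± 0.04, adjusted p = 0.000377) and Kat2a (0.19 ± 0.05, adjusted p = 0.00749) rose, and the chromatin reader gene Sgf29 was not called (0.06 ± 0.06, adjusted p = 0.489). In the core and Trrap list 4 of 13 tested genes rose and 0 fell, beside 22.3% higher among all genes, and 7 rose with library size alone. Taf9b, a histone-fold subunit shared with TFIID, had the largest change of the list. Its level was 20.2, 18.5 and 17.8 CPM in the GFP guide libraries and 43.2, 40.5 and 41.2 CPM with guide 2, with no overlap (1.14 ± 0.06, adjusted p = 1.02e-09). Supt20 rose by 0.46, Taf5l by 0.31 and Taf12 by 0.19 on the log2 scale. Of the deubiquitinase module, 5 of 8 tested genes rose, with Atxn7 at 0.43, Atxn7l1 at 0.41, Atxn7l3 at 0.27 and the ubiquitin protease gene Usp22 at 0.15. Without GFP guide replicate 3 the module's count was 3. The call of Usp22 was lost without GFP guide replicate 2 (adjusted p = 0.0872), without GFP guide replicate 3 (0.0749) and without guide 2 replicate 2 (0.0594). Of 7 tested subunits of ATAC, 0 rose and 2 fell, beside 21.1% lower among all genes. The latter were Kat14 (−0.20) and Yeats2 (−0.20), and the Yeats2 call was lost without guide 2 replicate 2 (adjusted p = 0.0728) and with library size alone (0.129).

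Among called genes averaging at least 5 CPM over the 6 libraries, the highest changes included those of a muscle stress gene and of interferon-induced genes. Some rarer genes had higher ratios. Ankrd1 encodes an ankyrin repeat protein induced by stretch and by YAP (ENSMUSG00000024803, chromosome 19, 36111961 to 36120099). Its level was 0.1997, 0.132 and 0.152 CPM in the GFP guide libraries and 19.9, 17.4 and 17.1 CPM with guide 2, a 111-fold rise (6.79 ± 0.14, adjusted p = 1.95e-13). Under the same limit, Apol9a (6.03 ± 0.22) and Apol9b (5.53 ± 0.14), apolipoprotein L genes induced by interferon, came next. Also high were Ifi204 (5.36 ± 0.12), Ifi205 (5.20 ± 0.18) and Ifi211 (5.18 ± 0.11) of the p200 family, whose products bind DNA. Reads of the Apol9 pair and of the p200 genes may be split unevenly, since these genes have close copies. Col1a1 (ENSMUSG00000001506, chromosome 11, 94936224 to 94953042) encodes part of the main fibrillar collagen and was counted at 7.04, 7.12 and 7.33 CPM in the GFP guide libraries and 219, 197 and 187 CPM with guide 2. The lowest guide 2 library lay far above the highest control (4.81 ± 0.07, adjusted p = 1.49e-14). Also among the highest were the tropomyosin gene Tpm2 (4.75), the small heat shock gene Hspb7 (4.59), Lrig1, a brake on growth factor receptors (4.31), and Map3k7cl (4.28).

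Under the same limit of 5 CPM, genes for secreted peptides, lipid enzymes, ion channels and melanin were among the largest falls. Cck, the cholecystokinin precursor gene (ENSMUSG00000032532, chromosome 9, 121489824 to 121495694), was counted at 11.4, 12.01 and 12.4 CPM in the GFP guide libraries and 0.8799, 0.785 and 1.11 CPM with guide 2. All 3 guide 2 libraries lay far below the controls (−3.69 ± 0.12, adjusted p = 5.91e-12). Mgll, which encodes monoacylglycerol lipase (ENSMUSG00000033174, chromosome 6, 88724412 to 88828360), was counted at 45.99, 45.01 and 44.4 CPM in the GFP guide libraries and 5.79, 5.83 and 6.03 CPM with guide 2, a 7.67-fold fall with almost no spread inside either group. The receptor gene Gpr37 fell by 2.63 ± 0.07, the melanocyte channel gene Trpm1 fell by 2.48 ± 0.05 and the melanosomal transporter gene Oca2 fell by 2.34 ± 0.08. Further falls were those of the pseudokinase gene Trib2 (−2.33), the tyrosinase gene Tyr (−2.23), the sodium channel gene Scn1a (−2.22), the phosphatase subunit gene Ppp1r16b (−2.21), the orphan nuclear receptor gene Nr4a3 (−2.21) and the heparanase gene Hpse (−2.15).

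**Figure D2:**
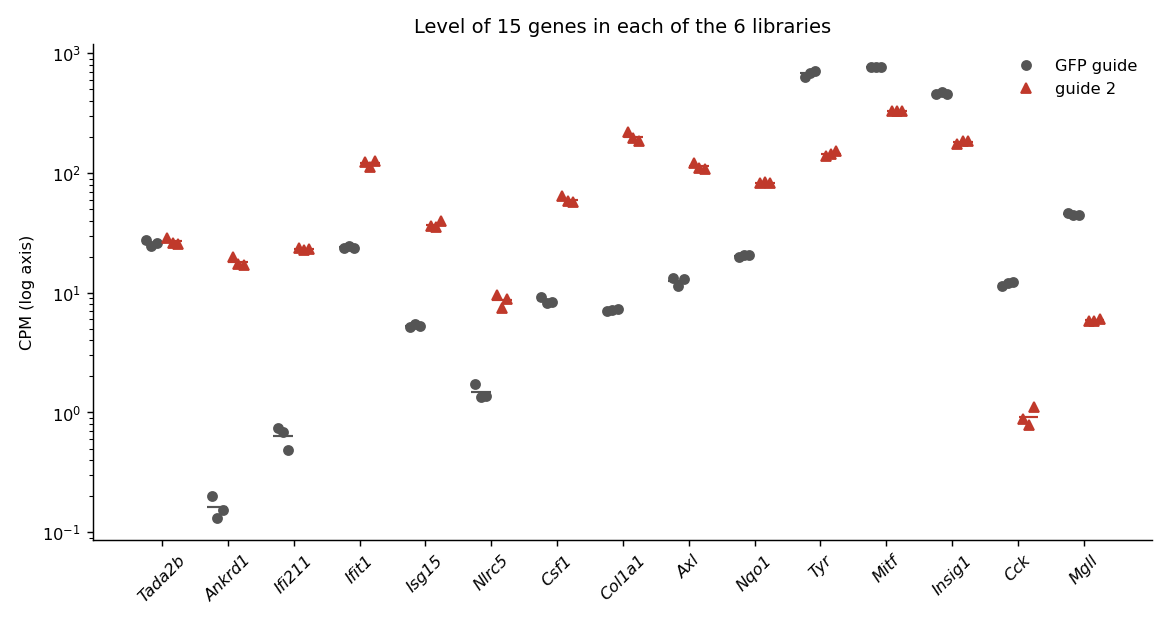
CPM on a log axis for 15 genes in each library, with circles for the 3 GFP guide libraries, triangles for the 3 guide 2 libraries and bars for the group means. The groups overlap for Tada2b, whereas each of the other 14 genes shows guide 2 libraries wholly above or wholly below the controls.

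Ranked by the difference in CPM, a scale on which long genes weigh more, 4 of the 6 largest falls were of pigment mRNAs. Tyrp1, a melanosomal enzyme, went from 8868 ± 97.3 to 3534 ± 24.1 CPM, Dct, a tautomerase of the pathway, went from 5057 ± 211 to 1632 ± 51.6 CPM, Pmel, the fibril protein of melanosomes, went from 3201 ± 81.2 to 897 ± 12.2 CPM and Gpnmb, a related glycoprotein, went from 4719 ± 128 to 2423 ± 11.4 CPM (mean ± SD, n = 3). Rn7sk, a noncoding RNA that holds the elongation factor P-TEFb, fell by 0.20 (adjusted p = 0.0232), and Eef1a1, a translation factor, fell by 0.23 on the log2 scale (adjusted p = 0.00565). The Rn7sk call was lost with library size alone (adjusted p = 0.0711) and without any 1 of GFP guide replicates 2 (0.0926) and 3 (0.0963) and guide 2 replicates 1 (0.0879) and 2 (0.0837). Rn7sk, like the small nuclear RNAs, lacks a poly(A) tail, so its count in poly(A) libraries may not follow its level. Genes of the cytoskeleton and matrix were among the 6 largest rises. Sparc, a collagen-binding glycoprotein, was counted at 948, 952 and 946 CPM in the GFP guide libraries and 1863, 1903 and 1908 CPM with guide 2. The fitted rise was 1.99-fold, with no overlap. Actb, cytoplasmic actin, went from 4602 ± 86.8 to 5422 ± 47.1 CPM, Vim, the filament protein vimentin, went from 1490.1 ± 16.4 to 2009.8 ± 11.7 CPM, Cald1, caldesmon, went from 241 ± 1.28 to 671 ± 6.57 CPM and Peg10, an imprinted gene of retroelement origin, went from 298 ± 11.1 to 849 ± 45.9 CPM. Gm24950, a small nuclear RNA gene, was also among them. Its control libraries ran from 938 to 1764 CPM, overlapping the guide 2 libraries at 1542 to 2082 CPM, and the call was lost with DESeq2 (adjusted p = 0.199), with all 9 libraries fitted together (0.0511) and without GFP guide replicates 1 (0.0743) or 3 (0.110) or guide 2 replicates 1 (0.0695) or 2 (0.0630).

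Interferon-induced genes were taken from sensor to effector. Members of several of these lists are nearly silent in the controls and passed the filter on low counts through the guide 2 group, so counts over tested members are descriptions and not evidence for the list. Of the nucleic acid sensors and their adaptors, 8 of 11 tested genes rose. Ddx58, the RNA sensor RIG-I, was counted at 16.2, 15.7 and 17.5 CPM in the GFP guide libraries and 118, 104 and 104 CPM with guide 2 (2.72 ± 0.06, adjusted p = 5.6e-13). The related sensor genes Ifih1 and Dhx58 rose by 2.16 and 2.92, and the RNA-editing gene Adar by 1.11. Mavs (0.13) and Tmem173, which encodes STING (0.02), were not called (adjusted p = 0.0858 and 0.752), although Mavs was with library size alone (adjusted p = 0.0197), and the kinase gene Ikbke fell by 0.71.

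Among receptors and JAK-STAT genes 13 of 23 tested genes rose and 3 fell. Irf9, the DNA-binding subunit of the interferon-activated complex, was counted at 6.13, 6.33 and 7.47 CPM in the GFP guide libraries and 44.1, 44.2 and 45.8 CPM with guide 2, 6.73-fold between groups that lay far apart (2.75 ± 0.07, adjusted p = 1.06e-12). Stat3 rose by 1.42, Irf1 by 1.42, Irf7 by 3.09 and the feedback inhibitor gene Socs1 by 1.11. The members that fell encode receptor chains, namely Il10rb (−0.94), Ifngr2 (−0.62) and Ifnar1 (−0.34).

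Effector genes rose almost without exception. In the antiviral list 39 of 40 tested genes rose, of 44 listed, with a median of 2.23, against a median of −0.01 for all genes tested. Ifitm2 (−0.13, adjusted p = 0.112) was the member not called; with all 9 libraries fitted together it was lower (adjusted p = 0.0431), as it was without GFP guide replicate 1 (0.0348). Ifit1, which binds foreign RNA caps (ENSMUSG00000034459, chromosome 19, 34640871 to 34650009), was counted at 23.8, 24.6 and 23.7 CPM in the GFP guide libraries and 124, 113 and 125 CPM with guide 2. The groups lay 5.03-fold apart (2.33 ± 0.05, adjusted p = 4.38e-13). Rtp4 rose by 3.37, Ifi27 by 2.14 and Ifitm3, a blocker of virus entry, by 1.89. In the ISG15 pathway, which attaches a ubiquitin-like protein to its targets, 5 of 5 tested genes rose. Isg15, the modifier itself, was counted at 5.18, 5.49 and 5.25 CPM in the GFP guide libraries and 35.96, 35.7 and 39.6 CPM with guide 2 (2.80 ± 0.07). Usp18, whose product strips the modifier, was counted at 2.05, 2.46 and 2.43 CPM in the GFP guide libraries and 32.4, 31.1 and 32.7 CPM with guide 2 (3.79 ± 0.08). The ligase gene Herc6 and the conjugating enzyme gene Ube2l6 rose by 0.99 and 1.08, and groups overlapped for none of these genes. Of the interferon-inducible GTPases, which attack vacuoles around pathogens, 13 of 17 listed were tested and 13 rose, among them Igtp (3.72 ± 0.11), Irgm2 (3.55), Gbp7 (2.37) and Gbp3 (2.14). Of the p200 family 5 of 12 listed genes passed the filter, and all of these rose, with Ifi211 counted at 0.746, 0.692 and 0.484 CPM in the GFP guide libraries and 23.6, 22.97 and 23.4 CPM with guide 2 and Ifi203 up by 4.12. Of the apolipoprotein L genes 4 of 10 passed it and rose, of which Apol7a and Apol6 stayed under 1 CPM in every library. With at least 1 CPM in 3 libraries as the filter, 2 of them were tested and called.

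Promoters of these genes were read for the interferon-stimulated response element, the site of the Irf9 complex. The core was searched as GAAANNGAA on both strands (TTCNNTTTC on the other) in the 250 bases before each RefSeq start of GRCm38.p6, the assembly of mm10. The stretches below were taken from effectors described above whose windows hold a match, and windows with none are not shown. Capitals mark every match of the core, which may overlap one another, and the rest is context. They lie at chr19:34640750-34640843 (plus strand), chr4:156200846-156200926 (minus), chr3:142559970-142560043 (plus) and chr1:173913047-173913113 (minus).
Ifit1: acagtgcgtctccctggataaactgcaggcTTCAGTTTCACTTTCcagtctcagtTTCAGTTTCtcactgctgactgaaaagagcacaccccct
Isg15: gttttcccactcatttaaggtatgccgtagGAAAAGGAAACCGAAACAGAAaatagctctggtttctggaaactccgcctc
Gbp3: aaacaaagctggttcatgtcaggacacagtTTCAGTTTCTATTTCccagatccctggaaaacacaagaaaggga
Ifi211: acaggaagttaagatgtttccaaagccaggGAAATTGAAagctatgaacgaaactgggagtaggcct
The core stood in 2342 of all 32851 windows (7.13%), in 387 of 6662 windows of genes tested and not called (5.81%) and in 108 of 990 windows of genes called at least 2-fold higher (10.9%). Here and below, the windows of a list are those of its tested members only. It stood in 9 of 11 windows of the GTPase list (81.8%, 10 genes), 4 of 5 of the p200 list (4 genes) and 16 of 41 of the antiviral list (39.0%). These lists were made of interferon-induced genes and hold close copies, so a high share could be foreseen and is a description, not a test. The apolipoprotein L list held it in 4 of 5 windows. Lower shares were those of 3 of 8 MHC class I windows (37.5%), 1 of 4 of ISG15 conjugation, 2 of 10 of the sensors, 3 of 21 of the ligand, receptor and JAK-STAT list (14.3%) and 1 of 12 of peptide processing (8.33%). Outside the immune lists the core stood in 4 of 16 windows of the YAP and TEAD list (25.0%) and 2 of 13 of the integrins (15.4%), but in 0 of 13 of the melanin list. Among genes called at least 2-fold lower it was 27 of 489 (5.52%). The gamma-activated sequence, searched as TTCNNNGAA, stood in 7.02% of all windows, 7.88% of those of genes at least 2-fold higher and 5.73% of those not called. It stood in 6 of 11 GTPase windows (54.5%), 5 of 16 of the death receptor list (31.2%), 6 of 41 of the antiviral list (14.6%) and 0 of 5 of the p200 list. A match is a run of letters and not a measured binding site.

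**Figure D3:**
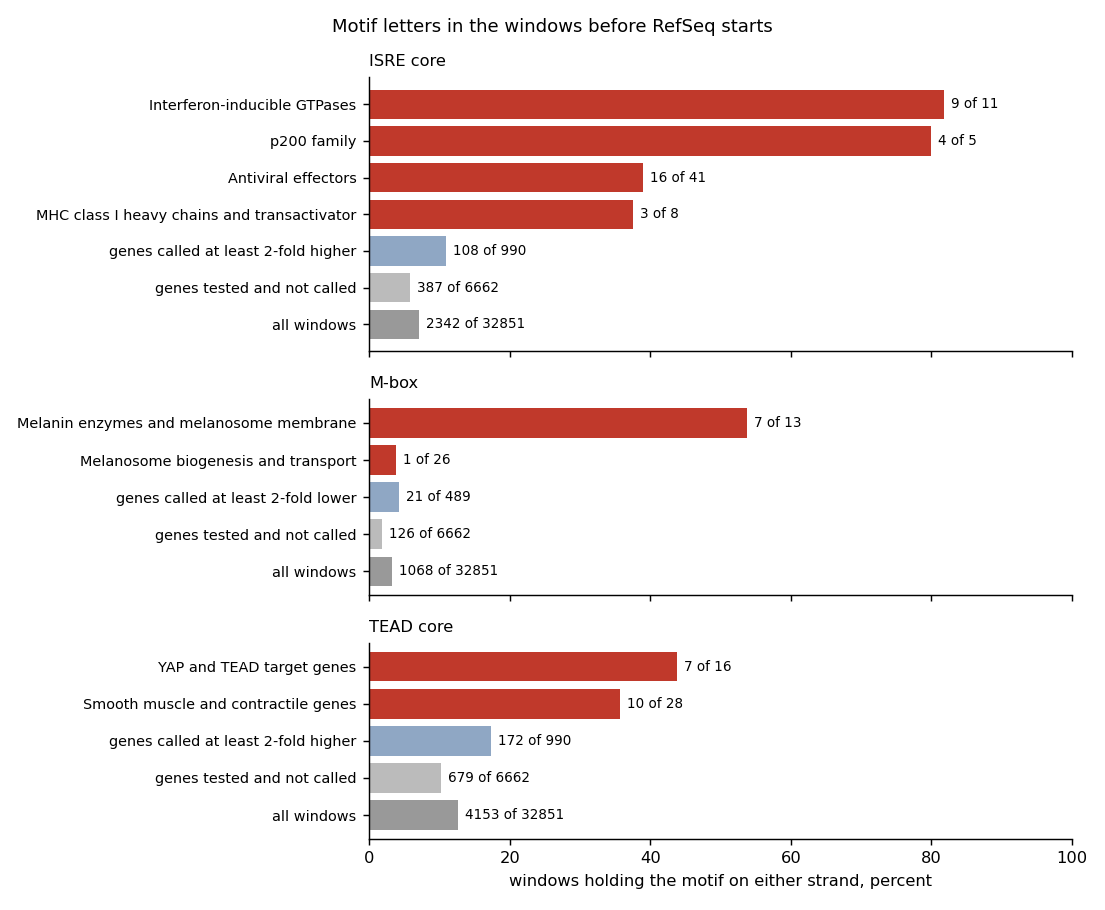
Percent of promoter windows (x axis) that hold each motif on either strand, for all windows, for genes by call and for the tested members of the gene lists on the y axis. Numbers beside the bars are windows with the motif of windows read. Bars for the GTPase and p200 lists reach 81.8% and 80.0% for the interferon element against 7.13% of all windows, and the melanin list reaches 53.8% for the M-box against 3.25%. High shares in these lists could be foreseen from how the lists were made and are descriptions, not tests.

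Antigen presentation genes rose on the class I side. Of 8 tested heavy chain and regulator genes 8 rose. Nlrc5, the transactivator of class I genes, was counted at 1.73, 1.35 and 1.38 CPM in the GFP guide libraries and 9.61, 7.51 and 8.897 CPM with guide 2 (2.54 ± 0.13, adjusted p = 9.38e-10). B2m, the light chain, was counted at 221, 222 and 224 CPM in the GFP guide libraries and 361, 357 and 378 CPM with guide 2 (0.72 ± 0.04). The heavy chain genes H2-D1 and H2-T22 rose by 0.91 and 0.90, although reads of H2 genes may be shared among similar copies. In peptide processing and loading 10 of 13 tested genes rose, with Tapbp (1.496), Tap1 (1.28), the trimming enzyme gene Erap1 (1.14) and the proteasome activator gene Psme2 (1.04). The 3 that fell, Calr (−0.45), Pdia3 (−0.31) and Canx (−0.22), encode general chaperones of the endoplasmic reticulum. On the class II side H2-DMa (−0.44) and H2-DMb1 (−0.34) were tested and neither was called, although H2-DMb1 was lower without GFP guide replicate 2 (adjusted p = 0.048).

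Secreted immune factors rose in the main. Of 30 listed chemokine and growth factor genes 16 were tested. Of these 11 rose, 9 by at least 2-fold, and 1 fell, the alarmin gene Il33 (−1.03). Here and in the lists below, a gene low in the controls could pass the filter through guide 2 alone. Counts over tested members are therefore descriptions, as for the interferon lists. Csf1, the growth factor of macrophages, was counted at 9.29, 8.23 and 8.39 CPM in the GFP guide libraries and 64.3, 58.4 and 57.3 CPM with guide 2 (2.80 ± 0.07, adjusted p = 5.6e-13). Cxcl10, which attracts T cells, was counted at 13.3, 14.4 and 13.7 CPM in the GFP guide libraries and 57.4, 54.3 and 59.04 CPM with guide 2, a 4.13-fold rise with no overlap. Il11 rose by 3.64 ± 0.14 and Cx3cl1 by 2.73. In the NF-kB list 10 of 17 tested genes rose and 0 fell, with the subunit genes Nfkb1 (1.04) and Rela (0.62), the kinase gene Map3k14 (0.95) and the coactivator gene Bcl3 (3.59). Of the ligands read by T, NK and phagocytic cells 8 of 15 rose. Lgals9, galectin-9, was counted at 22.7, 22.6 and 23.8 CPM in the GFP guide libraries and 79.4, 74.9 and 79.6 CPM with guide 2, with no overlap. The poliovirus receptor gene Pvr rose by 1.005, the adhesion gene Vcam1 by 3.36, and the phagocytosis brake gene Cd47 by 0.62, while Cd276 fell by 0.47. The PD-L1 gene Cd274 rose by 0.37, a call lost without GFP guide replicates 1 (adjusted p = 0.0838) or 3 (0.114) or guide 2 replicate 3 (0.153).

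Cell death genes moved both ways. Of death receptor and caspase genes 8 of 19 rose and 6 fell. The receptor genes Tnfrsf1a and Tnfrsf1b rose by 0.54 and 2.56, the necroptosis effector gene Mlkl by 0.26 and Casp12 by 2.16, whereas the inflammatory caspase gene Casp1, under 1 CPM in both groups, fell by 2.52, a call lost with DESeq2 (adjusted p = 0.0858). In the BCL-2 family 6 of 12 rose and 2 fell. The killer genes Bcl2l11 (0.94), Bid (0.61), Bmf (0.89) and Bok (1.67) rose. The survival gene Mcl1 fell by 0.27.

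Pigment cell genes fell. In bulk RNA, fewer cells of a type and less RNA per cell cannot be told apart. Of 16 tested melanin enzyme and melanosome membrane genes 16 fell, 14 of them by at least 2-fold, with a median of −1.65. Tyr, the enzyme of the first step of melanin synthesis (ENSMUSG00000004651, chromosome 7, 87424771 to 87493512), was counted at 639, 689.5 and 716 CPM in the GFP guide libraries and 138, 144 and 154 CPM with guide 2. The groups lay 4.699-fold apart (−2.23 ± 0.06, adjusted p = 7.95e-13). Trpm1, whose intron carries a melanocyte microRNA, was counted at 371, 377 and 366 CPM in the GFP guide libraries and 64.1, 69.7 and 65.6 CPM with guide 2. Pmel fell by 1.84 ± 0.04 and the proton-coupled transporter gene Slc45a2 fell by 1.64 ± 0.04. In the list of melanosome assembly and transport 12 of 25 tested genes fell and 3 rose. Among the falls were Rab27a (−1.60) and the motor gene Myo5a (−1.06) of transport, and Rab38 (−1.42) and Hps3 (−1.11) of melanosome biogenesis, and the largest rise was that of Rab7b (3.33) from a level near 0.

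Lineage regulators fell in 7 of 11 tested genes. Mitf, the master regulator of melanocytes (ENSMUSG00000035158, chromosome 6, 97807052 to 98021349), was counted at 772, 764 and 777 CPM in the GFP guide libraries and 328, 333 and 332 CPM with guide 2. The spread in each group was under 1% of its mean, and the change was −1.22 ± 0.04 (adjusted p = 1.07e-11). Sox10 fell by 0.92 ± 0.05, and the receptor genes Kit and Erbb3 changed by −1.495 ± 0.07 and −0.88. Kitl, the ligand of Kit, rose by 0.85.

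The M-box, an extended E-box that Mitf binds, was searched as TCATGTG on both strands (CACATGA on the other) in the same windows. The stretches below were taken from enzyme and channel genes described above whose windows hold a match, and windows with none are not shown. Capitals mark each match. They lie at chr7:87493513-87493564 (minus strand), chr4:80834136-80834202 (plus), chr7:64153663-64153729 (plus) and chr14:118052361-118052496 (minus).
Tyr: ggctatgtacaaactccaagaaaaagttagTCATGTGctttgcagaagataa
Tyrp1: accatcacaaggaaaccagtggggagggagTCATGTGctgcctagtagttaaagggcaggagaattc
Trpm1: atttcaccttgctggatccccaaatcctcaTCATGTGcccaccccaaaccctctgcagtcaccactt
Dct: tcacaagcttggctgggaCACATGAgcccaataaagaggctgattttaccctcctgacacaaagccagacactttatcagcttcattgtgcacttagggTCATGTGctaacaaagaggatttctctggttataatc
The M-box stood in 7 of 13 windows of the melanin list (53.8%), in 21 of 489 of genes called at least 2-fold lower (4.29%), in 126 of 6662 of genes not called (1.89%) and in 1068 of all windows (3.25%). The transport list held it in 1 of 26 windows (3.85%). The melanin list was made of pigment genes of the kind that Mitf drives. A high share could therefore be foreseen and is a description, not a test.

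Genes of the dedifferentiated melanoma state rose in the main. Of 15 tested genes 10 rose and 2 fell. Axl, a receptor kinase high in melanoma cells without Mitf (ENSMUSG00000002602, chromosome 7, 25757273 to 25788705), was counted at 13.3, 11.4 and 12.97 CPM in the GFP guide libraries and 121, 111 and 109 CPM with guide 2, 9.04-fold between groups (3.18 ± 0.07, adjusted p = 1.92e-13). The filament gene Nes rose by 1.44 and Cdh2, N-cadherin, by 0.997. Sox9, often high in such cells, fell by 0.99.

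Targets of YAP and TEAD, the factors that read cell shape, rose in 14 of 18 tested genes, with a median of 0.74. After Ankrd1 and Axl, Ccn2, a matricellular growth factor, was counted at 7.02, 6.52 and 7.29 CPM in the GFP guide libraries and 49.7, 44.4 and 47.8 CPM with guide 2, and Myof, a membrane repair gene, rose by 2.18 ± 0.07. Tgfb2 fell by 0.35. In the list of smooth muscle and contractile genes 18 of 24 tested genes rose. Cnn2, calponin 2 (ENSMUSG00000004665, chromosome 10, 79988584 to 79996062), was counted at 34.1, 33.6 and 33.1 CPM in the GFP guide libraries and 152, 147 and 150.0 CPM with guide 2, with SDs under 2% of the means (2.16 ± 0.04, adjusted p = 1.92e-13). Zyx, zyxin of focal adhesions, rose by 1.70, Cald1 by 1.47 and Tpm2 by 4.75, while the myosin kinase gene Mylk (−0.46) and Cnn3 (−0.19) fell.

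The TEAD core, searched as GGAATG on both strands, stood in 7 of 16 windows of the YAP list (43.8%), 10 of 28 of the contractile list (35.7%) and 12.6% of all windows. It stood in 172 of 990 windows of genes called at least 2-fold higher (17.4%), 72 of 489 of those at least 2-fold lower (14.7%) and 679 of 6662 of genes not called (10.2%). Among other lists, it stood in 4 of 5 windows of the apolipoprotein L genes. It also stood in 10 of 42 of the acetyltransferases, deacetylases and readers (23.8%), but in 0 of 13 of the melanin list. The CArG box of serum response factor, searched by its consensus, stood in 4 of 28 contractile windows (14.3%) and 1.47% of all. Its share was 2.53% for genes called at least 2-fold higher, 1.23% for those at least 2-fold lower and 1.08% for genes not called. Other lists held the box too, with 5 of 27 windows of immediate early genes (18.5%), 3 of 27 of the Wnt list (11.1%) and 2 of 18 of the lineage regulators (11.1%). The YAP list was made of TEAD targets, and list members were chosen with earlier results known. High shares in the YAP and contractile lists are therefore descriptions, not tests. The gene with the largest rise and that with the lowest p among contractile genes are shown with their matches in capitals, the TEAD core in Ankrd1 at chr19:36119932-36120084 (minus strand) and the CArG box in Cnn2 at chr10:79988514-79988583 (plus).
Ankrd1: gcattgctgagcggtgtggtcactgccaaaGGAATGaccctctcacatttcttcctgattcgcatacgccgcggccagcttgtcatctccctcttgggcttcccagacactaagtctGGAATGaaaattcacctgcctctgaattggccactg
Cnn2: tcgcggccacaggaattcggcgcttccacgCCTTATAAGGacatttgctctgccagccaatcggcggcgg
The AP-1 site TGANTCA (both strands, as its own complement) was added to the search after the values were seen. It stood in 113 of 990 windows of genes called at least 2-fold higher (11.4%) and 29 of 489 of those at least 2-fold lower (5.93%). The site stood in 256 of 6662 windows of genes not called (3.84%) and 2217 of all windows (6.75%).

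Matrix genes rose broadly, with a minority lower. Collagen chains rose in 14 of 26 tested genes, of 34 listed, and fell in 6. Col8a1, a short-chain collagen, was counted at 8.35, 8.56 and 10.3 CPM in the GFP guide libraries and 169.8, 172 and 173 CPM with guide 2. Its rise was 18.9-fold, and Col12a1 (3.06) and Col5a1 (2.17) rose too, whereas Col15a1 fell by 1.39. Of glycoproteins 21 of 29 tested genes rose and 5 fell, of 40 listed. Spp1, osteopontin, was counted at 15.3, 15.3 and 13.4 CPM in the GFP guide libraries and 167, 165 and 173 CPM with guide 2 (3.52 ± 0.06, adjusted p = 2.95e-14). Thbs1, thrombospondin 1, rose by 3.94, Ccn4 by 2.11 and fibronectin, Fn1, by 2.32, while the elastic fibre genes Fbln1 (−1.34) and Eln (−2.28, under 1 CPM) and the basement membrane gene Nid1 (−0.90) fell. Genes that crosslink or cut matrix rose in 22 of 34. The protease inhibitor gene Timp1 (2.68), the collagen processing gene Pcolce (2.11) and the protease gene Adamts4 (2.09) rose.

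Adhesion receptors moved in both directions. Among integrins 8 of 16 rose and 4 fell. Itga3, a laminin receptor chain, was counted at 3.52, 2.72 and 3.04 CPM in the GFP guide libraries and 35.7, 30.3 and 31.7 CPM with guide 2 (3.39 ± 0.09). Itgb5 rose by 1.38 and the common beta chain Itgb1 by 0.61, whereas Itga4, a receptor for Vcam1, was counted at 107, 98.6 and 108 CPM in the GFP guide libraries and 53.6, 53.8 and 49.02 CPM with guide 2 and Itga9 fell by 1.27. Of 8 tested cadherins 2 rose and 4 fell. Cdh19 of the neural crest fell by 1.34 ± 0.06 and Cdh13 fell by 1.77, while Cdh2 rose by 0.997 ± 0.05 and Pcdh7 by 0.83.

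**Figure D4:**
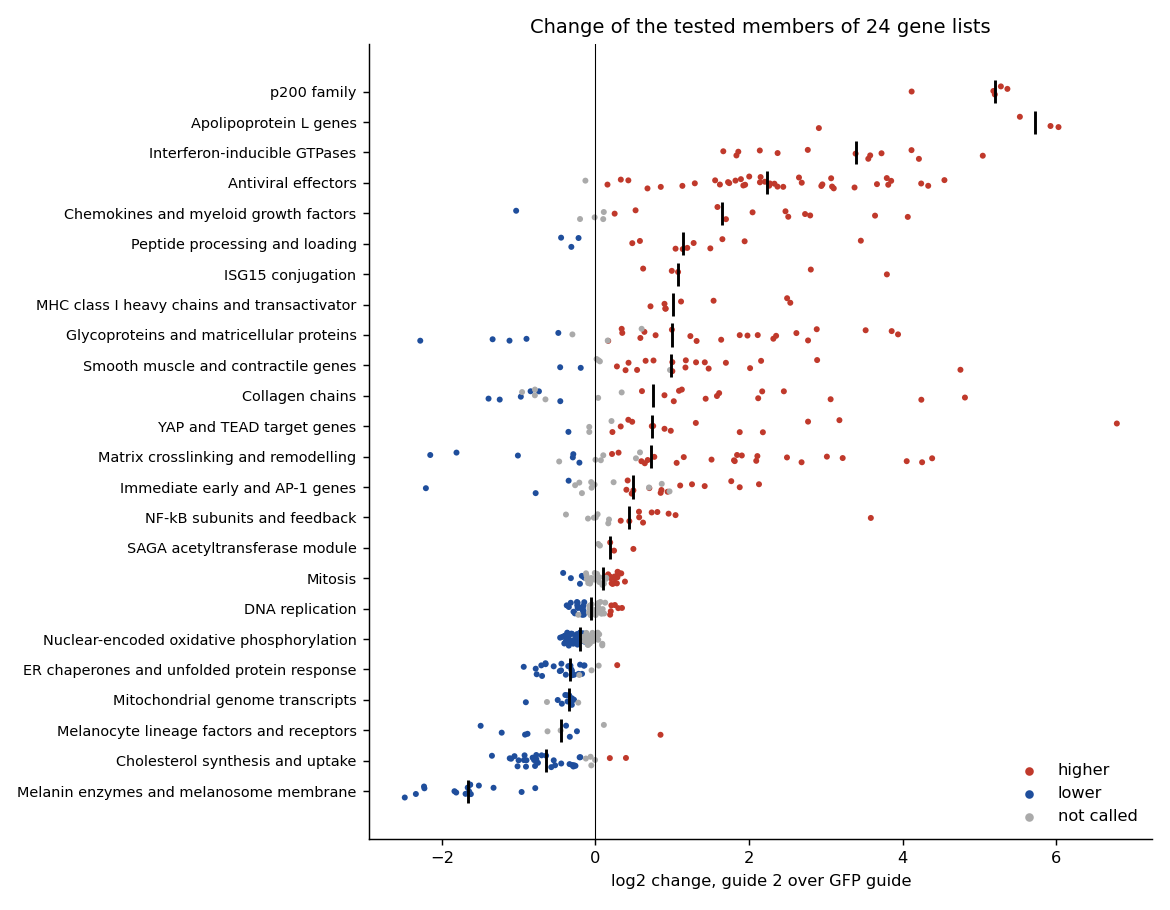
Log2 change of guide 2 over the GFP guide (x axis) for every tested member of 24 lists (y axis), coloured by call, with a black bar at each list's median. Medians run from −1.65 for melanin genes to 5.73 for the 4 apolipoprotein L genes tested, and members of the replication, mitosis and oxidative phosphorylation lists lie closer to 0 than those of the pigment and interferon lists.

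Markers of other cell types were read beside the pigment, immune and matrix results, and their part in those results was not tested. The summed level of 7 melanocyte markers was 20087 to 20727 CPM in the GFP guide libraries and 7021 to 7224 CPM with guide 2, and all 7 fell, Mlana at −1.63. Of 11 leukocyte markers Ptprc, Itgam and Tyrobp were at 0 in every library, and the summed level was 3.59 to 3.89 CPM against 6.18 to 6.46 CPM. Cd68 (1.10) and Lyz2 (0.84) rose and Fcer1g (−1.10) fell, none above 5 CPM. Of 8 fibroblast markers Thy1 was at 0, the sum was 7.72 to 10.2 CPM against 21.7 to 24.1 CPM, and Pdgfrb (1.48) and Col1a2 (1.58) rose while Pdgfra was not called (0.01, adjusted p = 0.98). Of 6 muscle markers Myod1 and Myog were at 0, the sum was 1.04 to 1.54 CPM against 2.89 to 3.20 CPM, and Des rose by 1.31. Endothelial markers, with Cdh5 at 0, summed to 1.04 to 1.54 CPM against 0.40 to 0.54 CPM, and Vwf fell by 1.88. Epithelial markers, with Krt5 and Krt8 at 0, summed to 0.99 to 1.19 CPM against 0.43 to 0.55 CPM, and Cdh1 fell by 1.81.

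Signalling lists held changes in both directions. In the TGF-beta and BMP list 14 of 34 tested genes rose and 9 fell. Id2, an inhibitor of differentiation that BMP induces, was counted at 276, 278 and 288 CPM in the GFP guide libraries and 91.04, 100.4 and 102 CPM with guide 2 and fell by 1.52 ± 0.05. The collagen processing protease gene Bmp1 rose by 1.51 and the signal transducer gene Smad3 by 0.96. In the Wnt list 10 rose and 6 fell of 29 tested, of 44 listed, beside 22.3% higher and 21.1% lower among all genes. Beta-catenin, Ctnnb1, went from 889.6 ± 18.5 to 534 ± 3.92 CPM (−0.74 ± 0.04) and its target Axin2 fell by 1.57, while Fzd2 (1.51), Lgr6 (2.55) and Wnt11 (4.86), the last from a mean of 0.098 CPM, rose. Of MAPK feedback genes 5 rose and 7 fell of 16. Members of the same family parted, with the phosphatase gene Dusp4 counted at 129, 123 and 116 CPM in the GFP guide libraries and 57.9, 57.9 and 51.8 CPM with guide 2 and Dusp5 up by 2.80. Phlda1 fell by 0.95, and Spred3 rose by 1.58. Of immediate early genes 14 of 27 rose and 3 fell. Fosl2, an AP-1 subunit, was counted at 16.1, 12.6 and 13.6 CPM in the GFP guide libraries and 51.5, 48.7 and 44.2 CPM with guide 2, and Junb and Btg2 rose by 0.94 and 0.86. Nr4a3, by contrast, was counted at 52.7, 43.8 and 46.2 CPM in the GFP guide libraries and 11.99, 10.1 and 8.81 CPM with guide 2, and Nr4a1 fell by 0.78.

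Of growth factor and receptor kinase genes 17 of 34 tested rose and 7 fell, of 52 listed. Bdnf, a neurotrophin, was counted at 5.19, 4.61 and 4.96 CPM in the GFP guide libraries and 25.96, 26.7 and 26.7 CPM with guide 2 (2.43 ± 0.07, adjusted p = 1.83e-12). Igfbp7 rose by 3.52 and Pdgfb by 4.08, while the receptor gene Met fell by 0.78 and Vegfa fell by 0.48. Of axon guidance and Schwann cell genes 20 of 39 rose and 12 fell. Epha2, an ephrin receptor, was counted at 3.196, 2.09 and 2.198 CPM in the GFP guide libraries and 32.6, 31.7 and 28.4 CPM with guide 2, a 12.3-fold rise with no overlap. The semaphorin genes Sema3e (2.21) and Sema3c (1.45) rose. Genes known from Schwann cells, which share the neural crest origin of melanocytes, fell in the cases of S100b (−1.28) and Gfap (−0.85).

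Changes in proliferation genes were small. The median of 47 tested replication genes was −0.06, with 6 higher and 18 lower, and with library size alone it was 0.01, with 11 higher and 9 lower. Tk1 (−0.37), Pcna (−0.35) and Pold3 (−0.29) fell and Ccne1 (0.34) rose. Of 40 mitosis genes 17 rose and 6 fell, none by 2-fold. Cdc25b fell by 0.42, Kif20a rose by 0.38, Anln by 0.30 and Cdc20 by 0.34. The lower count was 10 with all 9 libraries fitted together. Myc was counted at 77.8, 71.7 and 73.6 CPM in the GFP guide libraries and 51.97, 49.99 and 49.4 CPM with guide 2 and fell by 0.56 ± 0.05. In the list of the Myc network and ribosome biogenesis 17 of 33 rose and 7 fell. The Myc antagonist gene Mxd3 fell by 0.82, and the ribosome biogenesis genes Rrp12 (0.61) and Mybbp1a (0.41) rose. Among p53 targets and CDK inhibitors 7 of 29 rose and 11 fell, beside 22.3% higher and 21.1% lower among all genes. Trp53inp1 (−1.20), Zmat3 (−0.72) and Cdkn1a (−0.20) fell, Plk2 (1.47) rose, and Trp53 itself rose by 0.19.

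Lipid synthesis genes fell. Of 35 tested genes of cholesterol synthesis and uptake 29 fell and 2 rose, with a median of −0.64. Insig1, a brake on sterol synthesis (ENSMUSG00000045294, chromosome 5, 28071363 to 28078662), was counted at 455, 476 and 458 CPM in the GFP guide libraries and 175, 184 and 186 CPM with guide 2, a 2.55-fold fall (−1.35 ± 0.04, adjusted p = 9.39e-12). The enzyme genes Msmo1 (−1.10), Cyp51 (−1.001) and Hmgcs1 (−0.93) fell too. The members that rose do not make sterol. Mylip (0.40) degrades the LDL receptor and Soat1 (0.19) esterifies cholesterol. A sterol regulatory element, searched as TCACNCCAC (GTGGNGTGA on the other strand) after the values were seen, stood in 1 of 32 windows of this list (3.12%), that of Hmgcs1, and in 1.05% of all. Bases after the start were found in a GENCODE M21 transcript for 12 of 15 genes checked. Hmgcs1 was not among those 12, so the place of its window is less sure. Of fatty acid genes 26 of 46 fell and 10 rose. After Mgll, the binding protein gene Fabp7 fell by 2.15, Elovl6 fell by 0.87, Scd2 fell by 0.67 and Fasn fell by 0.51, and Acsl1 rose by 0.88.

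Most chaperone genes of the endoplasmic reticulum fell. Of 27 tested chaperone and unfolded protein response genes 23 fell, with a median of −0.33, and Atf6 rose by 0.28. Sdf2l1 (−0.93), Herpud1 (−0.77), Pdia4 (−0.65) and Dnajc3 (−0.65) led by p, and Hspa5, the chaperone BiP, went from 1896 ± 75.4 to 1374 ± 63.9 CPM. In the ATF4 and one-carbon list 19 of 42 fell and 7 rose, or 14 fell and 11 rose with library size alone. The transcription factor genes Atf4 (−0.38) and Ddit3 (−1.19) fell. The cystine transporter gene Slc7a11 rose by 0.87 and Nupr1 by 0.65. NRF2 targets moved both ways, with 16 of 39 higher and 7 lower. Nqo1, a quinone reductase, was counted at 19.8, 20.6 and 20.6 CPM in the GFP guide libraries and 82.9, 83.97 and 82.1 CPM with guide 2 (2.03 ± 0.05, adjusted p = 4.8e-13). Srxn1 rose by 1.42, the iron exporter gene Slc40a1 by 1.61 and Gpx1 by 0.90, and the abundant peroxiredoxin gene Prdx1 fell by 0.89.

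Energy metabolism genes fell slightly. Of 70 tested nuclear genes of oxidative phosphorylation 43 fell and 0 rose, with a median of −0.20, or 34 lower and 3 higher with library size alone. Ndufs8 (−0.46), Sdhb (−0.43), Cox6a1 (−0.41) and Ndufv3 (−0.38) were the members of lowest p. Transcripts of the mitochondrial genome fell in 13 of 15, with mt-Co3 at −0.49 and mt-Atp6 at −0.39. That count was 7 with library size alone, 5 with DESeq2, 8 without GFP guide replicate 1, 6 without GFP guide replicate 3 and 6 without guide 2 replicate 2. The mitochondrial share of counts was 1.83 ± 0.26% in the GFP guide libraries, where replicate 2 stood at 1.53%, and 1.49 ± 0.06% with guide 2 (mean ± SD, n = 3; two-sided exact permutation p = 0.2). Glycolysis and hypoxia genes fell in 24 of 42 and rose in 9. Aldoc (−1.04) and Ldhb (−0.78) fell, and the hypoxia targets Adm (1.83), Egln3 (1.46) and P4ha2 (0.68) rose. Lysosomal genes fell in 21 of 41 and rose in 8, with cathepsin D, Ctsd, at −0.65, Lipa at −0.57 and Naglu at −0.56, and Galns rose by 1.07.

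Chromatin genes outside SAGA changed modestly. Of 35 tested acetyltransferase, deacetylase and reader genes 11 rose and 5 fell, beside 22.3% higher and 21.1% lower among all genes. The lower count was 3 with library size alone or without GFP guide replicate 2. Hdac7, a class IIa deacetylase, was counted at 5.41, 4.11 and 4.85 CPM in the GFP guide libraries and 16.5, 15.3 and 16.2 CPM with guide 2 (1.74 ± 0.09, adjusted p = 1.35e-09), and it was the only member past 2-fold upwards. Hdac11 fell by 1.02, and Hdac5 (0.45) and Sirt1 (0.38) rose. In the list of retroelement and Polycomb silencing 8 of 29 fell and 2 rose, but 5 fell and 8 rose with library size alone. The number that rose was 4 without GFP guide replicate 1 or guide 2 replicate 3, and 1 with upper quartile scaling or without GFP guide replicate 2, guide 2 replicate 1 or guide 2 replicate 2, and 5 fell without the last. Its median was −0.05, and 0.02 with library size alone. Cbx7, a Polycomb reader, was counted at 5.33, 5.78 and 6.04 CPM in the GFP guide libraries and 12.5, 11.3 and 11.2 CPM with guide 2, with no overlap, while Cbx2 (−0.45), Rnf2 (−0.43) and the methyltransferase gene Dnmt3b (−0.59) fell.

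A switch from near 0 to at least 1 CPM in every guide 2 library, with at most 3 reads in each control, was met by 1 gene, Speer3, which has similar copies in the genome. It had 2, 2 and 0 reads in the GFP guide libraries and 84, 106 and 83 with guide 2, and the assignment of reads among copies is uncertain. No gene met the reverse rule. With a limit of 10 reads the first count was 15, and it was 4 without GFP guide replicate 3 and 2 without GFP guide replicate 2 or guide 2 replicate 3.

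By gene type, 27.7% of 12655 protein-coding genes rose and 24.4% fell, whereas of 1619 processed pseudogenes 4.20% rose and 13.2% fell. Of 71 small nuclear RNA genes 25 rose and 3 fell. Such RNAs lack a poly(A) tail, so in poly(A) libraries their counts may not follow their levels. By chromosome, excluding the mitochondrial one and Y, the share that rose ran from 18.3% on chromosome 13 to 28.1% on chromosome 19. Of genes over 100 CPM 21.7% rose and 32.4% fell, and of genes under 1 CPM 11.8% rose and 7.97% fell.

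Guide 2 was then set against guide 1, the other Tada2b guide, in a fit of all 9 libraries with CPM scaled over the 9, a comparison that does not use the controls as its reference. Of 17931 genes tested 477 were higher (2.66%) and 183 lower (1.02%) with guide 2, and 15 and 4 of these differed by at least 2-fold. Of the 219 genes that the naming rule picked, 82 were called between the guides, 43 higher and 39 lower with guide 2. The 219 include those picked for this difference. Oca2 was counted at 5.02, 4.57 and 4.03 CPM with guide 2, 2.44, 2.097 and 1.76 CPM with guide 1 and 24.1, 22.8 and 22.9 CPM in the GFP guide libraries. Guide 2 lay between guide 1 and the controls (guide 2 over guide 1, 1.11 ± 0.11 on the log2 scale, adjusted p = 9.61e-06). Mgll stood at 5.801, 5.85 and 6.07 CPM with guide 2, 3.25, 3.02 and 2.98 CPM with guide 1 and 46.7, 45.9 and 44.9 CPM in the GFP guide libraries (0.94 ± 0.07, adjusted p = 3.64e-07), also between them. The lipid transporter gene Abca12 (1.03 ± 0.06), the orphan receptor gene Gpr158 (1.02 ± 0.10) and the protease gene Adam12 (0.91 ± 0.11) were likewise higher with guide 2. On the other side, Ifi204 was counted at 20.3, 16.9 and 19.4 CPM with guide 2, 30.6, 28.3 and 30.5 CPM with guide 1 and 0.405, 0.495 and 0.4896 CPM in the GFP guide libraries (−0.66 ± 0.07, adjusted p = 1.24e-05). Ifi205 (−0.64 ± 0.09), Apol9b (−0.61 ± 0.08), Apol9a (−0.58 ± 0.11) and CT010467.1 (−0.66 ± 0.17, adjusted p = 0.0355) were lower with guide 2.

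**Figure D5:**
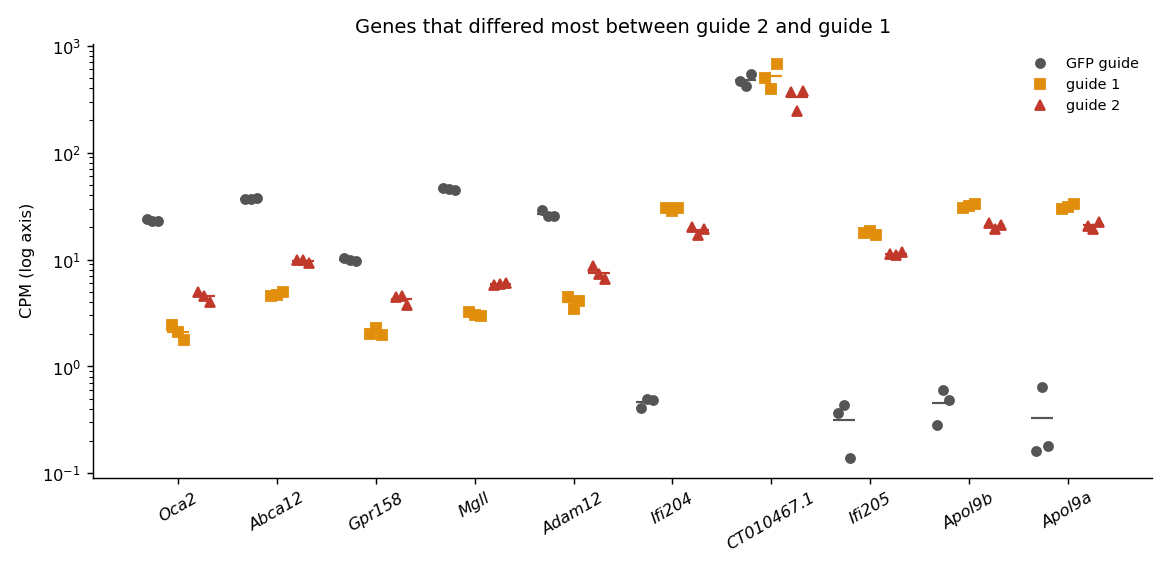
CPM on a log axis in each of the 9 libraries for the 5 genes most higher and the 5 most lower with guide 2 than with guide 1, with bars for group means. For 9 of the 10 genes the guide 2 libraries lie between those of guide 1 and the GFP guide, and CT010467.1 is the exception.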

How the data were processed

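Poly(A) RNA from 9 B16F10 libraries was sequenced, and the 6 of guide 2 and the GFP guide entered the main fit. The authors deposited raw read counts per gene. Per the submitters' processing notes, bcl2fastq, HISAT2 and HTSeq were used with mm10. Versions, the annotation, the strand setting and filters are not given in the sources used here, so overlapping and antisense genes, and genes with close copies (Apol9, p200, H2, Slfn, Oas1, Tgtp, Ifit), are uncertain.

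Of 54752 gene identifiers 54723 matched GENCODE M21, and 23883 rows were at 0 in all 6 libraries. Counts were filtered with filterByExpr (minimum count 10), scaled by TMM and tested with the two-sided quasi-likelihood test of edgeR 4.0.16 in R 4.3.3, with Benjamini-Hochberg adjustment over all genes tested; every adjusted p without another name is from it. SE is the log2 change over the square root of F. DESeq2 1.42.0, limma 3.58.1, other scalings and filters, a replicate block and leaving out each library were alternatives. The steps were tested on simulated data. Promoter windows come from RefSeq (GRCm38.p6); 10785 tested genes had one.

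Named genes were Tada2b, the 12 highest and 12 lowest log2 changes among called, non-overlapping genes averaging 5 CPM or more, the 6 largest CPM changes each way, up to 4 members of each of 51 lists by p, genes switching from at most 3 reads to at least 1 CPM, markers, and the 5 largest guide differences each way. A few genes that meet it are not reported here. Others were named after their values were seen, as were the AP-1 and sterol motifs. Members and lists were chosen with earlier results of these data known. Depth was 70.6 to 76.2 M counts, and the common biological coefficient of variation between libraries of a group was 0.0569.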

Additional observations from a re-analysis of the deposited data

Results flagged for a closer look

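The 2 Tada2b guides, set against each other in 1 edgeR fit of 9 libraries, gave different levels of some genes, and the 5 with the largest differences each way at a mean of at least 5 CPM are given as the log2 ratio of guide 2 to guide 1. Oca2 (1.11), Abca12 (1.03), Gpr158 (1.02), Mgll (0.94) and Adam12 (0.91) were higher with guide 2. Each of these was below the controls with both guides. Ifi204 (−0.66), CT010467.1 (−0.66), Ifi205 (−0.64), Apol9b (−0.61) and Apol9a (−0.58) were lower with guide 2. The p200 and apolipoprotein L genes among these were above the controls with both guides. The cause was not tested.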

How the results depend on the processing

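Across 15 alternative fits the counts called stayed within 1.5 times of 3866 higher and 3656 lower. With each library left out in turn they ran from 3372 to 3867 higher and 3127 to 3687 lower, from 1037 to 1158 at least 2-fold higher and from 534 to 607 at least 2-fold lower. Requiring at least 1 CPM in 3 libraries left 12935 genes tested and gave 667 at least 2-fold higher and 325 at least 2-fold lower. The difference in mitochondrial share ran from −0.495 to −0.260 percentage points. Under some settings 4 genes that were not called changed sign, and no called gene named here did. With a library left out, Tada2b ran from −0.0175 (without guide 2 replicate 1) through −0.000403 (without GFP guide replicate 2) to 0.0737, and it was 0.106 with library size alone. Over the same left-out libraries, Tmem173 ran from −0.00425 to 0.0558, and was −0.00237 with upper quartile scaling, Pdgfra ran from −0.167 to 0.183, and was −0.00764 with all 9 libraries and −0.0189 with upper quartile scaling, and Grhl2 ran from −0.480 to 0.0334 (log2). Guide 2 against guide 1 gave 405 higher and 176 lower with library size alone, and 446 and 231 with the 6 guide libraries. Same-numbered libraries deviated together with correlations of 0.116, 0.051 and 0.039, so the numbers were not taken to pair them. With a replicate block 4567 genes were higher and 4428 lower, and Ifitm2 (−0.132, adjusted p = 0.00343) and Mavs (0.132, adjusted p = 0.024), not called in the same fit without the block, were called. Each library but guide 2 replicate 3 correlated best with its own number. Depth limits low genes: under 1 CPM, 11.8% of genes were called higher and 7.97% lower.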
